A study of Homo sapiens with 4 samples.

Results

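The core small nuclear ribonucleoprotein (snRNP) and spliceosome genes were examined in darolutamide-resistant prostate cancer cells with and without knockdown of the long non-coding RNA LOC730101. The set was defined by name and comprised 37 genes encoding the Sm and LSM ring proteins, the U1- and U2-specific proteins, the SF3A and SF3B subunits, U2AF and the PRPF and U5 proteins. All 37 were found among the 60606 rows of the count table, and all 37 were among the 19349 genes that passed the expression filter and were tested. DaroR cells are LNCaP cells, a prostate cancer line, that were made resistant by culture in rising concentrations of darolutamide, an antiandrogen, and then kept in the drug. They were transfected with control siRNA (siControl) or with pooled siRNAs targeting LOC730101 (siLOC730101), and poly(A) RNA was sequenced from 2 libraries in each group. Both groups came from the same resistant line and differed in the siRNA. The sources do not say whether the 2 libraries of a group came from separate cultures, so that the p-values measure the spread between these libraries, which may be technical.

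Introns are removed from pre-mRNA by the spliceosome, which is assembled from the U1, U2, U4, U5 and U6 snRNPs, each a small nuclear RNA (snRNA) with its proteins. A ring of Sm proteins is loaded onto U1, U2, U4 and U5 snRNA, and a related ring of LSM proteins onto U6. U1 recognises the 5′ splice site, U2AF and U2 with SF3A and SF3B recognise the 3′ splice site and the branch point, and the U4/U6.U5 tri-snRNP then joins to form the catalytic centre. These genes are expressed in essentially all cells. The snRNAs themselves lack a poly(A) tail and are not considered here.

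The libraries held between 39213498 and 53368158 counts, of which the 37 genes took between 0.462% and 0.473%. LOC730101 (ENSG00000216775 in the table) had a normalized CPM (counts scaled to library size) of 47.4 and 50.6 in siControl and of 15.4 and 17.9 in siLOC730101. The knockdown thus measured -1.56 on the log2 scale, with a standard error of 0.12 and, in edgeR, an adjusted p of 4.34e-06. The 10 LNCaP markers examined, among them KLK3 and FOLH1, were detected in all libraries, with a summed CPM between 9043 and 9969. Of 10 markers of other cell types, 6 (PTPRC, CD3E, CDH5, KRT5, TP63 and CHGA) had 0 counts in all 4 libraries, PECAM1 had at most 2 counts in any library, and the summed CPM of the 10 lay between 13.9 and 18.0.

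The levels of the core genes were first compared with each other, per kilobase of exon. In siControl they ranged from 163 ± 8.62 CPM per kilobase (SD, n = 2) for SF3B5, a small subunit of SF3B, to 1.42 ± 0.011 (SD, n = 2) for LSM6, a subunit of both LSM rings. U2AF2, which binds the polypyrimidine tract, followed SF3B5 with 68.7 ± 2.10 CPM per kilobase, and SNRPD2 and LSM4 had 65.3 ± 3.07 and 65.3 ± 1.01. PRPF6, a tri-snRNP bridging protein, and PRPF8, the scaffold of the catalytic centre, had 60.6 ± 2.50 and 60.0 ± 2.32 CPM per kilobase, levels that did not differ beyond the spread of the libraries. At the lower end were PRPF4 with 7.28 ± 0.801, LSM8 with 2.42 ± 0.238 and U2AF1 with 1.45 ± 0.194 CPM per kilobase. Of the 36 neighbouring pairs in this order, 22 overlapped between their siControl libraries, including U2AF1 and LSM6, and 14 did not, including SF3B5 and U2AF2. The 7 Sm ring genes, whose products are used in equal numbers in each ring, lay between 13.5 for SNRPF and 65.3 for SNRPD2. The exon length is the union over all annotated transcripts, up to 17309 bases for LSM8 and 11095 bases for U2AF1, so that genes with long rare exons have lower values on this scale.

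**Figure D1:**
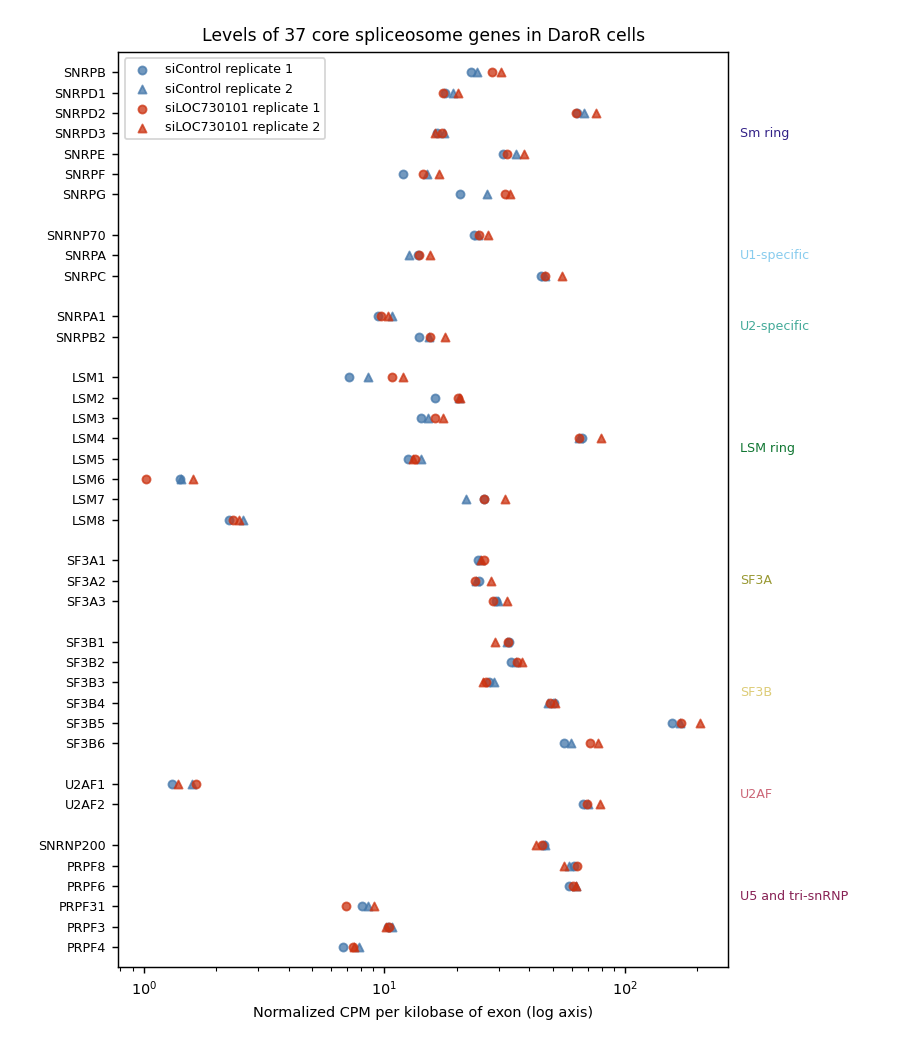
Level of each of the 37 genes, as normalized CPM per kilobase of exon on a log axis, grouped by complex. Each point is 1 library (blue, siControl; red, siLOC730101; circle, replicate 1; triangle, replicate 2). SF3B5 is highest at 163 CPM per kilobase in siControl and LSM6 and U2AF1 are lowest, and the differences between genes are far larger than those between the libraries of a gene.

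The 2 siLOC730101 libraries were then compared with the 2 siControl libraries to ask whether the knockdown changed the genes of the splicing machinery. In the quasi-likelihood test of edgeR, 0 of the 37 genes were higher and 0 were lower at an adjusted p under 0.05. Over all genes tested, 0.212% were called higher and 0.0724% lower, 0.284% in all. The smallest adjusted p was 0.104, for SF3B6. At an unadjusted p under 0.05 in edgeR, 6 of the 37 genes (16.2%) were higher and 0 were lower, while 6.43% and 4.39% of all genes tested were higher and lower. Over the 11112 genes tested with a mean count above that of the lowest core gene, 9.87% were higher at this threshold. The 95% interval of the log2 fold change included 0 in 31 genes. It lay within a 1.5-fold change in either direction in 34 genes and within a 2-fold change in all 37. The standard errors ranged from 0.070 to 0.25. With 2 libraries against 2, the smallest p that exact permutation of the libraries allows for one gene is 0.333 (two-sided), and in bulk RNA a lower level from fewer cells of a kind and from less RNA per cell cannot be told apart.

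The log2 fold change was above 0 in 27 of the 37 genes and below 0 in 10, with a median of 0.078. Over all genes tested 49.6% were above 0 and the median was -0.0021, and over the same 11112 genes 55.8% were above 0 and the median was 0.022. Both siLOC730101 libraries lay above both siControl libraries in 12 of the 37 genes (32.4%), against 21.3% of all genes tested, and below them in 2 genes (5.41%), against 20.5%. Over the 11112 genes these shares were 27.1% and 18.9%. In the remaining 23 genes the groups overlapped. The median moved with the libraries included. It was 0.18 without siLOC730101 replicate 1 and 0.021 without the other siLOC730101 library. Leaving out siControl replicate 1 gave 0.035, and leaving out siControl replicate 2 gave 0.12.

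**Figure D2:**
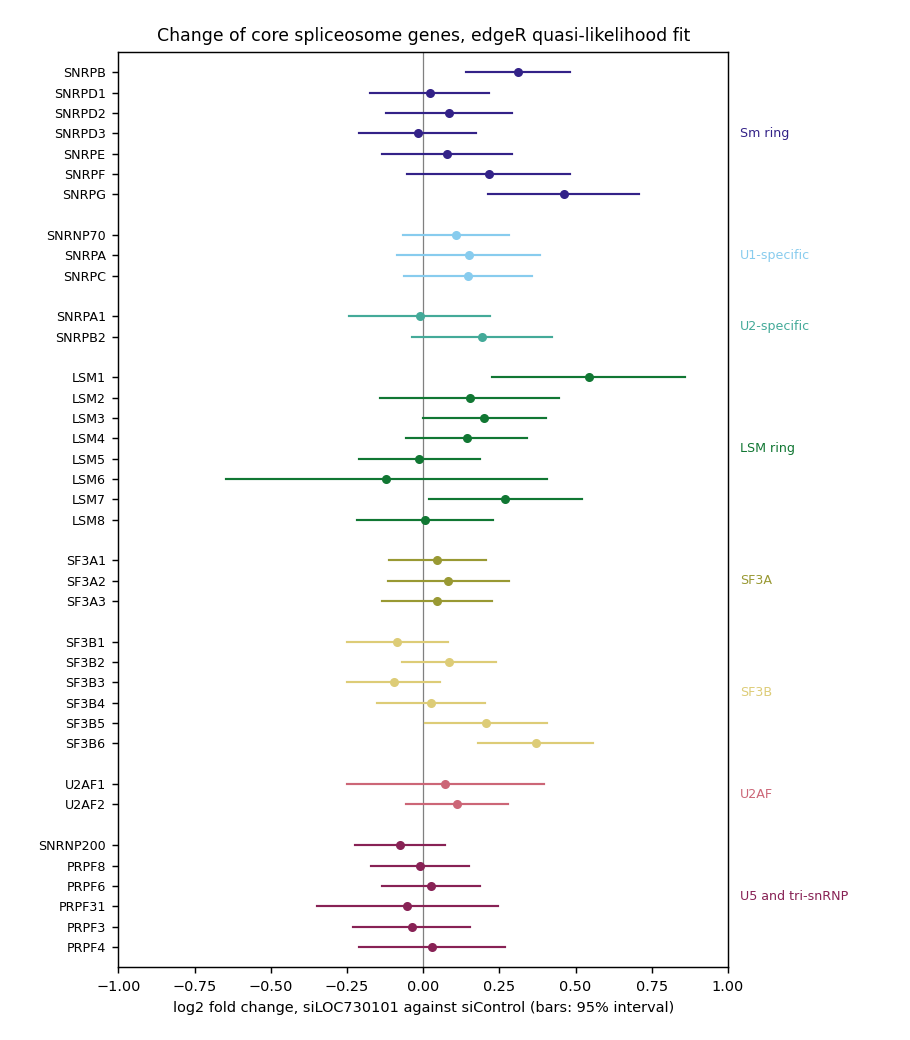
log2 fold change of each core gene, siLOC730101 against siControl, from the edgeR quasi-likelihood fit over all genes tested (points), with 95% intervals (bars), coloured by complex. The intervals of 31 of 37 genes include 0, and the 6 that do not, of SNRPB, SNRPG, LSM1, LSM7, SF3B5 and SF3B6, lie above 0.

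Among the 7 Sm ring genes the median log2 fold change was 0.085 and 0 passed the adjusted threshold. SNRPB, on chromosome 20 of GRCh38 from 2461634 to 2470853, encodes SmB, which pairs with SmD3 in the ring. Its normalized CPM was 118 and 125 in siControl and 145 and 157 in siLOC730101, so that the groups did not overlap. For SNRPB the log2 difference was 0.31 ± 0.0805 (standard error; adjusted p = 0.125, edgeR), a 1.24-fold difference with an interval from 1.10 to 1.40. SNRPG, on chromosome 2 from 70281362 to 70293740, encodes SmG of the E-F-G part of the ring. Its CPM was 36.3 and 47.2 in siControl and 56.0 and 58.8 in siLOC730101, also without overlap. For SNRPG it was 0.46 ± 0.12 (standard error; adjusted p = 0.116, edgeR), and the interval of the fold ran from 1.16 to 1.63. The siControl libraries of SNRPG differed from each other by more than its siLOC730101 libraries did, and the value was 0.28 when siControl replicate 1 was left out and 0.67 when replicate 2 was. The partners of these proteins gave smaller values. SNRPD3 had a CPM of 64.6 and 69.2 in siControl and 68.3 and 63.8 in siLOC730101 (log2 fold change -0.018), and SNRPE had 64.9 and 73.6 against 67.4 and 78.9 (0.078). SNRPF had 28.8 and 36.3 against 34.9 and 40.6 (0.22, adjusted p = 0.577, edgeR). SNRPD1 and SNRPD2, which bind each other, had log2 fold changes of 0.021 and 0.085, and in both the groups overlapped. Per kilobase, the level of SNRPB relative to SNRPD3 was 1.39 and 1.37 in siControl and 1.61 and 1.87 in siLOC730101. With SNRPD3 at -0.018 on the log2 scale, this ratio mostly restates the difference of SNRPB, and it was not tested. Some exon bases of SNRPD3 also lie in exons of another gene.

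The U1-specific genes were close to each other, with log2 fold changes of 0.11 for SNRNP70, which holds the first stem-loop of U1 snRNA, 0.15 for SNRPA, which binds another stem-loop, and 0.15 for SNRPC, which contacts the 5′ splice site. Their adjusted p-values in edgeR lay between 0.639 and 0.696. SNRPC had a CPM of 55.4 and 58.0 in siControl and of 57.8 and 67.7 in siLOC730101, so that the groups overlapped, whereas those of SNRNP70 (110.5 and 114 against 116 and 127) and of SNRPA (32.4 and 29.7 against 32.7 and 36.3) were separated by less than the distance between replicates. SNRPA and SNRPB2 encode related RNA-binding proteins of U1 and U2. Per kilobase, the level of SNRPA relative to SNRPB2 was 0.992 and 0.828 in siControl and 0.900 and 0.863 in siLOC730101. SNRPB2 differed by 0.19 on the log2 scale (adjusted p = 0.558, edgeR) and SNRPA1, whose product is its partner on U2 snRNA, had -0.012 (adjusted p = 0.989, edgeR).

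The 8 LSM genes had a median log2 fold change of 0.15. The subunits LSM2 to LSM7 are shared by the nuclear ring, which LSM8 completes and which binds U6, and the cytoplasmic ring, which LSM1 completes and which promotes decapping and decay of mRNA. LSM1, on chromosome 8 from 38163335 to 38176730, had the largest log2 fold change of the 37 genes, at 0.54 ± 0.15 (standard error; adjusted p = 0.148, edgeR). Its CPM was 11.9 and 14.3 in siControl and 18.0 and 20.1 in siLOC730101, without overlap, and the interval of the fold ran from 1.17 to 1.81. Of the exon bases of LSM1, 37.9% also lie in exons of genes on the opposite strand, and without a strand option the reads there cannot be assigned to one gene. LSM8 had a CPM of 39.0 and 44.8 in siControl and of 40.8 and 43.2 in siLOC730101, with a log2 fold change of 0.0053 and an interval of the fold from 0.860 to 1.17. Per kilobase, the level of LSM8 relative to LSM1 was 0.317 and 0.304 in siControl and 0.220 and 0.208 in siLOC730101. This ratio of mRNA levels was thus lower in both siLOC730101 libraries, and proteins were not measured. With LSM8 at 0.0053 on the log2 scale, the ratio mostly restates the difference of LSM1. The size of the ratio depends on the exon lengths, 17309 bases for LSM8 and 1676 for LSM1, and in CPM LSM8 was the higher gene. This ratio was examined after the values had been seen and was not tested. LSM7 had 43.8 and 36.8 against 43.8 and 53.4 CPM, a log2 difference of 0.27 (adjusted p = 0.423, edgeR). LSM3 (0.20), LSM2 (0.15) and LSM4 (0.14) had positive values, of which that of LSM4 came from siLOC730101 replicate 2 with 228 CPM against 184 to 189 in the other libraries. LSM5 had -0.013. LSM6, with 167 to 304 counts the gene with the fewest reads, had a CPM of 5.62 and 5.68 in siControl and of 4.06 and 6.35 in siLOC730101, and its log2 fold change of -0.12 had an interval from -0.65 to 0.41.

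The SF3A and SF3B complexes are parts of the U2 snRNP that clamp the branch point. The log2 fold changes of the 3 SF3A genes were 0.047 for SF3A1, 0.083 for SF3A2 and 0.046 for SF3A3. In SF3B, the 4 large or intermediate subunits stayed near 0. SF3B1, which surrounds the branch-point helix and is recurrently mutated in cancer, had 343 and 336 CPM in siControl and 341 and 299 in siLOC730101 (log2 fold change -0.085). SF3B2 had 0.084, SF3B3 had -0.097 and SF3B4 had 0.026, and the adjusted p-values of these 4 genes in edgeR lay between 0.691 and 0.953. SF3B3 was one of the 2 core genes with both siLOC730101 libraries below both siControl libraries, at 328 and 318 against 338 and 354 CPM. SF3B6 and SF3B5, both small subunits, had higher values. SF3B6, on chromosome 2 from 24067586 to 24076373, encodes p14, the subunit found next to the branch-point adenosine. Its CPM was 62.5 and 67.1 in siControl and 80.4 and 87.2 in siLOC730101, without overlap, and its log2 fold change of 0.37 had a standard error of 0.089 (adjusted p = 0.104, edgeR) and an interval of the fold from 1.13 to 1.47. SF3B5 had 108 and 117 CPM in siControl and 118 and 142 in siLOC730101, a log2 difference of 0.21 ± 0.094 (standard error; adjusted p = 0.447, edgeR).

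U2AF2 and U2AF1 form the heterodimer that reads the polypyrimidine tract and the AG of the 3′ splice site. U2AF2 had 271 and 283 CPM in siControl and 282 and 318 in siLOC730101 (log2 fold change 0.11, adjusted p = 0.667, edgeR). U2AF1 had 14.5 and 17.6 against 18.4 and 15.4 CPM (0.073, adjusted p = 0.923, edgeR), and per kilobase U2AF2 was between 42.1 and 56.8 times as high in the 4 libraries. This ratio depends on the exon lengths, 11095 bases for U2AF1 and 4040 for U2AF2. The level of U2AF1 is uncertain: GRCh38 holds a near-identical copy on the same chromosome from 6484623 to 6499248, which RefSeq lists with the older symbol U2AF1L5, and that copy, ENSG00000275895 in the table, had 0, 0, 4 and 0 counts. The counting command has no option for reads that align to several places, and featureCounts leaves such reads out unless told otherwise.

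The genes of U5 and the tri-snRNP had the lowest median of the groups, -0.024, with 4 of 6 values below 0. SNRNP200, the helicase that unwinds U4 from U6, had 514 and 521 CPM in siControl and 505 and 477 in siLOC730101 and was the other gene with both siLOC730101 libraries below both siControl libraries (log2 fold change -0.076, adjusted p = 0.772, edgeR). PRPF8, the core gene with the most reads, had 699 and 661 against 716 and 634 CPM, with a log2 fold change of -0.011 and an interval of the fold from 0.888 to 1.11. PRPF6 had 0.025, PRPF31, whose mutation causes retinitis pigmentosa, had -0.052, and the U4/U6 proteins PRPF3 and PRPF4 had -0.038 and 0.028. Of the exon bases of PRPF31, 31.3% also lie in exons of genes on the opposite strand.

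The genes with the largest values, SF3B6, SNRPG, SNRPB and LSM1, were further compared under other fits. With DESeq2, which the submitters' processing notes name, SF3B6 (adjusted p = 0.0140, DESeq2), SNRPB (adjusted p = 0.0185, DESeq2) and SNRPG (adjusted p = 0.0261, DESeq2) passed the threshold and LSM1 (adjusted p = 0.0606, DESeq2) did not, so that 3 of the 37 genes were called higher, where 2.36% of all genes with an adjusted p in DESeq2 were. In edgeR with all genes of at least 1 count, these 4 genes passed, where 1.01% of all genes tested were called higher. Without siLOC730101 replicate 1 the 4 genes and LSM4, LSM7 and SF3B5 passed (4.3% of all genes tested), without siControl replicate 2 SNRPG and LSM1 did (0.543%), without siLOC730101 replicate 2 SNRPG alone did (0.355%), and without siControl replicate 1 the count was 0 (0.566%). The log2 fold change of each of the 4 genes was above 0 under all 15 alternatives, and 18 of the 37 genes kept their sign throughout. Because the 4 genes were chosen by their values in these same libraries, the other fits give no independent support. With the 4 genes left out, the median of the other 33 was 0.047, and 23 of them had a value above 0.

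**Figure D3:**
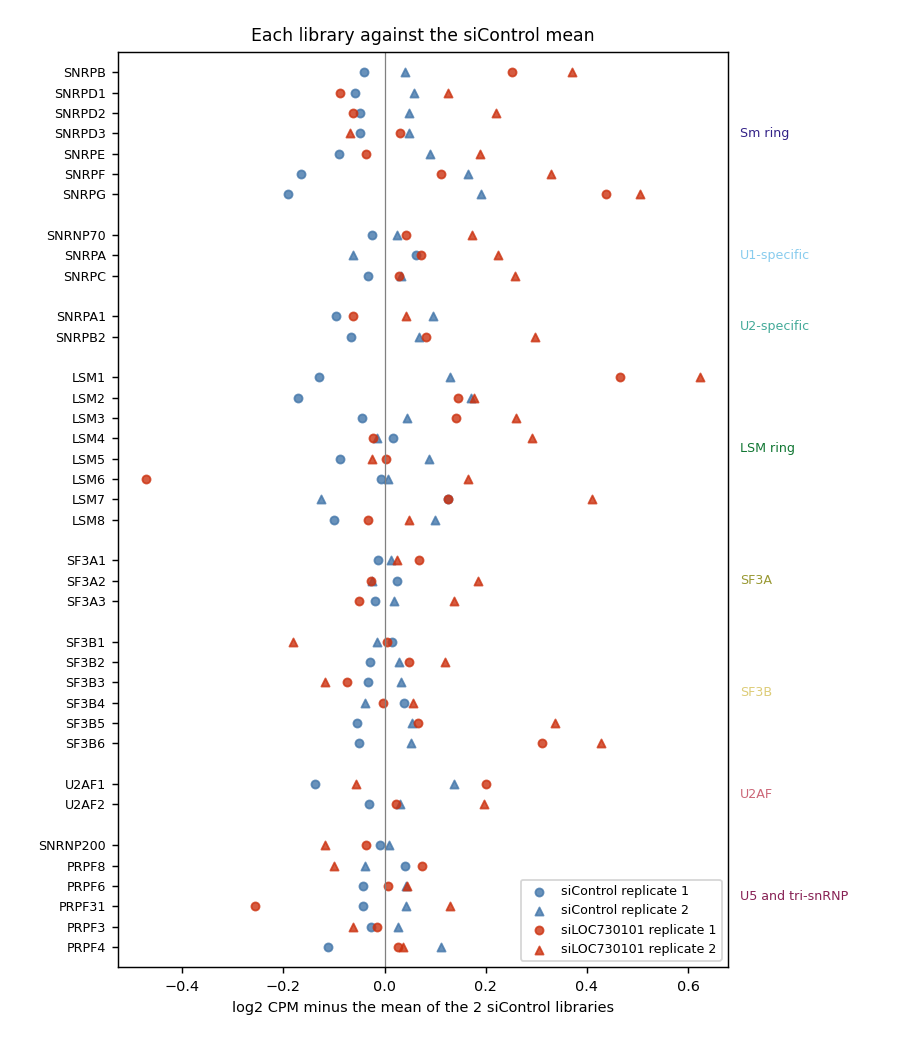
log2 CPM of each core gene in each library, minus the mean of the 2 siControl libraries (blue, siControl; red, siLOC730101; circle, replicate 1; triangle, replicate 2). Both red points lie above both blue points in 12 genes, most widely in SNRPB, SNRPG, LSM1 and SF3B6, and siLOC730101 replicate 2 lies further to the right than replicate 1 in many of the short genes.

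The values of the core genes were related to exon length. Over the 37 genes, Spearman's rho between the exon length and the log2 fold change was -0.63 and Pearson's r with log2 length was -0.57. Over the 14233 genes tested with a mean normalized count above 50, rho was -0.20, and over all 19349 genes tested it was -0.056. These are correlations across genes that share the same 4 libraries, and genes are not independent replicates. Of the 18 genes shorter than the median of 3669 bases, 17 had a log2 fold change above 0, with a median of 0.15; of the 19 others, 10 had one, with a median of 0.0053. Over the core genes, rho was -0.74 for siLOC730101 replicate 2 against the siControl mean and -0.26 for siLOC730101 replicate 1, and between the siControl libraries it was -0.19. Between the siLOC730101 libraries, replicate 2 minus replicate 1, it was -0.57 over the core genes and -0.29 over the 14233 genes, so that libraries of 1 group also differed with length. The trend of each library with length, fitted on the 14233 genes, was removed in a fit that was added after this relation had been seen. With that trend removed, rho over the core genes was -0.21, the median log2 fold change was 0.022, and 22 of the 37 values were above 0. In that fit 0 of the 37 genes were called higher, where 0.331% of all genes tested were. SNRPB then had 0.29 (adjusted p = 0.0814, edgeR), LSM1 0.43 (adjusted p = 0.223, edgeR), SNRPG 0.35 (adjusted p = 0.183, edgeR) and SF3B6 0.24 (adjusted p = 0.218, edgeR). The part of length-dependent differences between libraries in these values was not tested further.

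**Figure D4:**
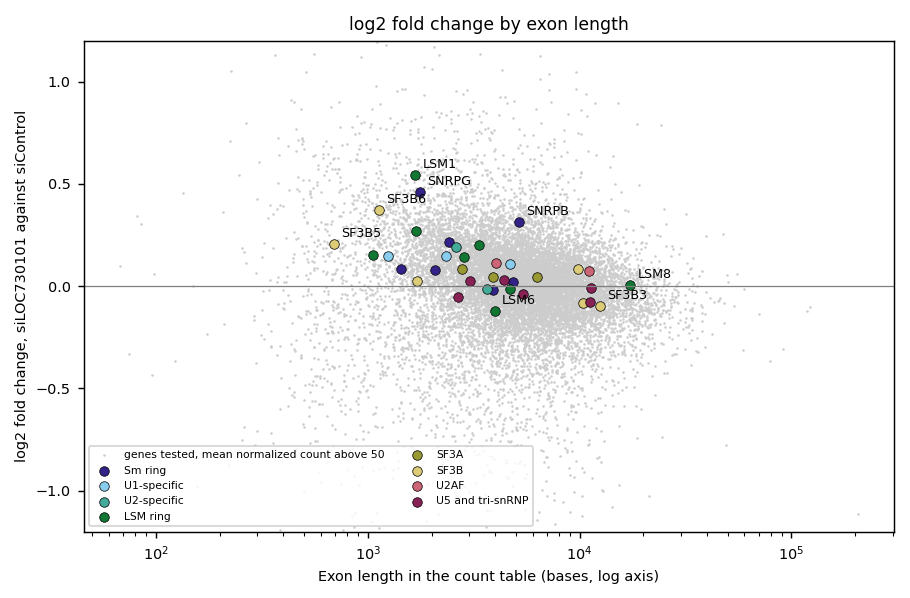
log2 fold change, siLOC730101 against siControl, by exon length in the count table (log axis), for the core genes (coloured by complex) and for the genes tested with a mean normalized count above 50 (grey; values beyond 1.2 in either direction are not drawn). Spearman's rho is -0.63 over the 37 core genes and -0.20 over the grey genes.

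Several core genes have copies that could share their reads. In the table, 12 of the 37 genes have pseudogenes of the same symbol, 66 in all, of which 5 were tested. For SNRPG the 20 pseudogenes held 9.19% as many counts as the gene itself, and for each of the other 11 genes at most 0.527%. Summed over SNRPG and its pseudogenes, the CPM was 40.6 and 51.4 in siControl and 61.3 and 62.9 in siLOC730101, 35.0% higher, compared with 37.5% for SNRPG alone. The pseudogene with the most counts, SNRPGP15, had 148 and 107 counts in siControl and 83 and 27 in siLOC730101 (log2 fold change -0.87, adjusted p = 0.513, edgeR). Of the related genes, SNRPN, the neuronal counterpart of SNRPB, had a log2 fold change of 0.078, and U2AF1L4 had 0.057. The U1-associated LUC7L, LUC7L2 and LUC7L3 had -0.18, -0.10 and -0.050. In 23 of the 37 genes, 0 exon bases lay in exons of another gene, and in 3 genes, LSM1, PRPF31 and SNRPD3, over 10% did.

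The rest of the splicing pathway and genes related to it, among them 10 genes of cytoplasmic mRNA decay, were described with 9 lists of 106 genes. These lists share no gene with the core set. With an adjusted p under 0.05 in edgeR, 0 of the 106 genes were called in either direction. At an unadjusted p under 0.05 in edgeR, 8 were higher (7.55%) and 2 were lower. Of all genes tested, 6.43% were higher and 4.39% lower at this threshold, and of the 11112 genes 9.87% were higher. The median log2 fold change was 0.050, and 65.1% were above 0, where 49.6% of all genes tested and 55.8% of the 11112 genes were. Among 12 partners of U5, U4/U6 and the tri-snRNP the median was 0.092, with TXNL4A (0.28, adjusted p = 0.182, edgeR) and CD2BP2 (0.30, adjusted p = 0.207, edgeR), both of U5, as the genes with the smallest p. Among 11 partners of U2 and the 3′ splice site it was 0.077, with PUF60 at 0.17 and the helicase DHX15 at -0.12. The 18 genes of the Prp19 complex, which stabilises the catalytic centre, and of related factors had a median of 0.067, with BCAS2 at 0.26 and SYF2 at 0.28. The 14 helicases and second-step factors had -0.0056, with DDX39B at -0.83 (adjusted p = 0.320, edgeR) and DDX41 at 0.17. DDX39B had 160 and 164 counts in siControl and 73 and 70 in siLOC730101, and 30.8% of its exon bases lie in exons of other genes.

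The 9 genes of the minor spliceosome, which removes a rare class of introns, had a median of -0.086, with 7 values below 0; SCNM1 had 0.41 (adjusted p = 0.274, edgeR) and PDCD7 -0.34 (adjusted p = 0.288, edgeR). The 8 genes of the exon junction complex had a median of 0.0085, with SAP18 at 0.18 and EIF4A3 at 0.13. The 19 genes of snRNP assembly and import, the SMN complex among them, had 0.054. SMN1 had 48 and 58 counts in siControl and 29 and 462 in siLOC730101, so that its log2 difference of 2.60 (adjusted p = 0.170, edgeR) came from 1 library; SMN1 and SMN2 are near-identical and their separate values are uncertain. SMN2 had -0.19, and MEPCE had 0.30. The 10 partners of the LSM1 ring in mRNA decay had a median of 0.028, with LSM14B at 0.28 (adjusted p = 0.222, edgeR) and LSM14A at 0.12. The 5 other genes of the Sm and LSM fold had 0.098, with NAA38 at 0.39 (adjusted p = 0.116, edgeR) and LSM11, of the U7 snRNP, at -0.20.

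**Figure D5:**
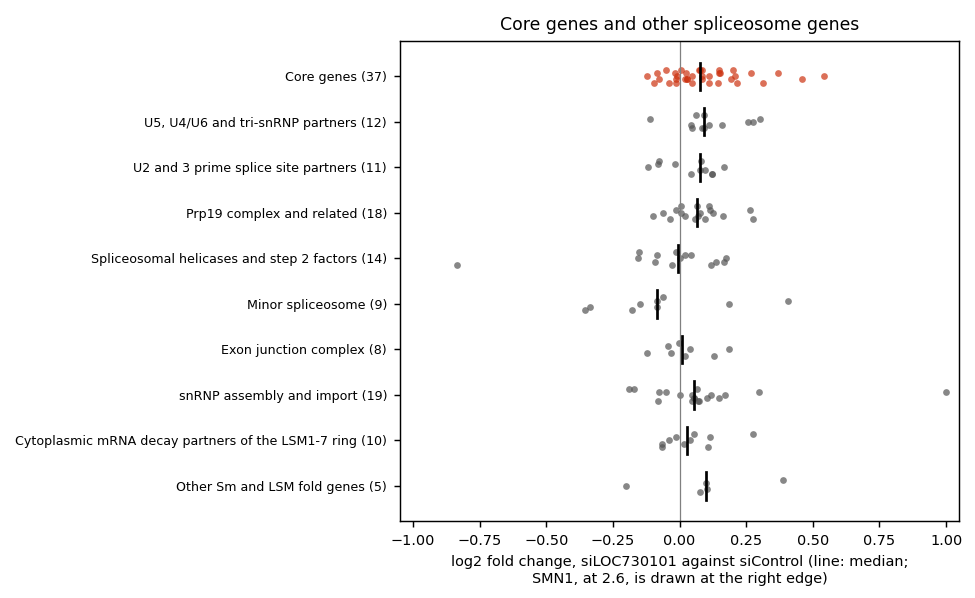
log2 fold change, siLOC730101 against siControl, of the 37 core genes (red) and of the genes in 9 lists of other spliceosome and related genes, mRNA decay genes included (grey), with the number tested in brackets and the median as a black line. The medians lie between -0.086 for the minor spliceosome and 0.098 for the other Sm and LSM fold genes; SMN1, at 2.60, is drawn at the right edge.

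The promoters of the core genes were examined for short motifs that the choice of the genes did not use. In RefSeq (GRCh38.p14), 32 of the 37 genes had a promoter sequence, and the 250 bases before the annotated start were searched on both strands. CCGGAAG, a core bound by ETS factors, was found in 17 of 32 core genes (53.1%) and in 8.72% of 27305 promoters. GGGCGG, the GC box, was found in 20 (62.5%), against 41.3% of all promoters, CCAAT in 8 (25.0%), against 32.7%, and TATAAA in 1 (3.12%), against 11.4%. The NRF1 motif was found in 1 core gene and in 1.07% of all promoters, and the YY1 motif in 0 and in 0.249%. The windows had a median GC content of 61.2% in the core genes and 57.6% in all promoters. In part of the genes the window holds an exon of another transcript of the same gene. In the 12 core genes where it holds none, CCGGAAG was found in 5 (41.7%), against 8.09% of the 10529 such promoters. Neither set of promoters was limited to genes expressed in these cells, so that core genes were not compared with genes of similar level. A match describes the sequence and does not show that a factor is bound.

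Shown here are 4 of these windows without any annotated exon, chosen after the matches were seen. They are SF3B4, PRPF6 and SNRNP200, with CCGGAAG on one strand or the other close to the start, and SF3B5, the core gene with the highest level, which has a GC box and CCAAT but not CCGGAAG. Each runs 5′ to 3′ along the strand of its gene up to the base before the start, with all matches in capitals.
SF3B4, chr1:149927804-149928053, minus strand: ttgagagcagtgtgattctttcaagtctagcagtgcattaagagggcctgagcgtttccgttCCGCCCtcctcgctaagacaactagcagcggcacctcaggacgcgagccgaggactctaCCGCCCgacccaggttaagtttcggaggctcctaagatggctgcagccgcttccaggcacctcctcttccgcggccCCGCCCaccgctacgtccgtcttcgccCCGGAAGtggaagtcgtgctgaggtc
PRPF6, chr20:63980882-63981131, plus strand: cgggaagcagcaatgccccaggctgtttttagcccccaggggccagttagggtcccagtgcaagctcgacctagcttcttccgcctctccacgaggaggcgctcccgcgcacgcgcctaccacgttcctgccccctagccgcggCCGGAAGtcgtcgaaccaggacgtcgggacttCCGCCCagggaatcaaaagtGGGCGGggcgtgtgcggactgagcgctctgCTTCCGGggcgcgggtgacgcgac
SNRNP200, chr2:96305547-96305796, minus strand: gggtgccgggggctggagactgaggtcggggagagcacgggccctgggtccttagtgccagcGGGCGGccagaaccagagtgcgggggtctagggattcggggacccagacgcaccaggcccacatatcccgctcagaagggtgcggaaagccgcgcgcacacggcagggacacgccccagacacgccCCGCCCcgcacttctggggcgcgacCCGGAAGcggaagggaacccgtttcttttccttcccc
SF3B5, chr6:144095574-144095823, minus strand: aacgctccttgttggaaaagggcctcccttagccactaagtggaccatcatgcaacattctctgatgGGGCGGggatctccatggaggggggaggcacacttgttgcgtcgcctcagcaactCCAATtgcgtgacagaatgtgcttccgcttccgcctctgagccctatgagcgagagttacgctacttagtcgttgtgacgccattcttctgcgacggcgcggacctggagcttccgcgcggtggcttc
In SF3B4 the CCGGAAG starts 26 bases before the annotated start, in SNRNP200 37 bases, and in PRPF6 106 bases on the strand of the gene and 24 bases on the other. The CPM of SF3B4 was 86.0 and 81.5 in siControl and 83.5 and 87.1 in siLOC730101, and that of PRPF6 was 179 and 189.9 against 185 and 190.3, so that the groups of both genes overlapped. None of these 4 genes passed the adjusted threshold.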

How the data were processed

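Poly(A) RNA-seq of LNCaP-DaroR cells was analysed in 2 siControl and 2 siLOC730101 libraries, grouped by the labels. The values are raw counts per gene, deposited by the authors as 1 table; per the file headers they were made with featureCounts 2.0.1 on exons of gencode 41 (hg38), by gene name, with no paired-end, strand or multi-mapping option in the command. The submitters' processing notes name FastQC, Trim Galore, BWA, featureCounts and DESeq2, while the methods of the study name STAR and hg19 for its RNA-seq; which applies to each step was not settled. Mates of a pair may each have been counted, and reads of near-identical genes may have been lost or split. Among counts from 1 to 20, between 66.0% and 70.1% were even, depending on the library. Whether mates were counted separately was not tested further.

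All genes were fitted with edgeR 4.0.16 in R 4.3.3 (filterByExpr with its minimum count of 10, TMM, quasi-likelihood test with condition only, two-sided), with Benjamini-Hochberg adjustment over the 19349 genes tested and a threshold of 0.05. The biological coefficient of variation was 0.147. CPM used TMM-scaled library sizes, and levels between genes were divided by exon length. Intervals are 95%. Alternatives were 3 other scalings, 2 filters on low counts, DESeq2 1.42.0, 2 other quasi-likelihood settings, a replicate block, halved counts, leaving out each library, an unadjusted threshold with a mean normalized count above 50 and, added after the data were seen, removal of the trend with exon length. The main edgeR fit was tested on simulated counts, and the alternatives were not. Promoters came from the RefSeq table, which lacked 5 of the 37 genes. No genome of the build of the files was used.

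Named were all 37 genes, the 2 genes with the smallest p in each list of other spliceosome and related genes, every related copy, the pseudogene with the most counts and LOC730101. SMN2 was named besides, after its values were seen. The genes and lists were chosen with earlier results of these data known. Cell type markers were read as lists.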

Additional observations from a re-analysis of the deposited data

How the results depend on the processing

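Of the 37 core genes, 0 were called lower under any alternative. The number called higher was 3 with DESeq2, 4 with all genes of at least 1 count, 6 at an unadjusted p under 0.05 with a mean normalized count above 50, and between 0 and 7 when 1 library was left out. It was 4 with the replicate block and 0 under the remaining alternatives. The median log2 fold change of the core genes lay between 0.021 and 0.18 when 1 library was left out, and was 0.047 with upper-quartile factors and 0.039 with library totals, which moved the median of all genes to -0.033 and -0.039. A lone library left in a group was assumed to vary like the other group. DESeq2 gave no adjusted p for LSM6. The precision with 2 libraries a group is that of the intervals given.

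The replicate numbers of the labels were shared by the groups, and the differences between replicates 1 and 2 had a correlation of -8.96e-04 between the groups. The sources do not say whether samples of the same number were prepared together, and 1 difference per group cannot settle it. With the replicate block 4 core genes were called higher (SNRPG, SF3B6, SNRPB and LSM1), where 2.51% of all genes tested were.

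Over 15 alternatives, 509 of 555 log2 fold changes kept their sign and 46 did not, and 18 genes kept it throughout. With upper-quartile factors SNRPD1 had -0.010, LSM8 -0.026, SF3B4 -0.0052, PRPF6 -0.0056 and PRPF4 -0.0026, and with library totals they had -0.018, -0.033, -0.012, -0.012 and -0.0092. LSM8 had -0.0094 with at least 1 CPM in 2 libraries and -4.13e-05 with halved counts. With the length trend removed, SNRPD1 had -0.0024, SNRPD2 -0.037, SNRPE -0.025, SF3B4 -0.088, PRPF6 -0.040, PRPF4 -0.0021 and PRPF8 0.022. When 1 library was left out, the ranges were -0.092 to 0.13 for SNRPD1, -0.066 to 0.23 for SNRPD2, -0.065 to 0.034 for SNRPD3, -0.041 to 0.20 for SNRPE, -0.10 to 0.090 for SNRPA1, -0.0081 to 0.33 for LSM2, -0.025 to 0.30 for LSM4, -0.098 to 0.081 for LSM5, -0.48 to 0.18 for LSM6 and -0.091 to 0.11 for LSM8. They were -0.029 to 0.19 for SF3A2, -0.053 to 0.15 for SF3A3, -0.17 to 0.0030 for SF3B1, -0.0097 to 0.067 for SF3B4, -0.058 to 0.22 for U2AF1, -0.092 to 0.071 for PRPF8, -0.015 to 0.071 for PRPF6, -0.26 to 0.14 for PRPF31 and -0.079 to 0.15 for PRPF4. The cause was not tested.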
